A study of Mus musculus with 2 samples.

Results

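The 33 genes described here encode the enzymes and transporters of glycolysis (16 genes) and proteins of the cellular response to low oxygen (17 genes). They were taken by symbol from the 31053 gene rows that both single-cell libraries of the series share. The glycolysis genes run from glucose uptake to lactate export: Slc2a1, Hk1, Hk2, Gpi1, Pfkl, Pfkp, Pfkfb3, Aldoa, Tpi1, Gapdh, Pgk1, Pgam1, Eno1, Pkm, Ldha and Slc16a3. The hypoxia genes were Hif1a, Egln1, Egln3, Pdk1, Bnip3, Bnip3l, Vegfa, Ero1l, Ankrd37, P4ha1, P4ha2, Adm, Ndrg1, Mxi1, Higd1a, Ddit4 and Hilpda. The genes were chosen by their levels in these same cell classes, macrophage states and libraries, with earlier results known, so their levels in cell states and their differences between libraries are given as a description, with no test. Of the 33 genes, 32 had at least 10 UMIs in the monocyte/macrophage-like cells, and Adm, which encodes the peptide adrenomedullin, had 0 UMIs there in both libraries.

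Cells sense oxygen through prolyl hydroxylases, among them the products of Egln1 and Egln3, which mark the HIF-alpha proteins for destruction while oxygen is present. When oxygen is short, HIF-alpha (Hif1a encodes one form) pairs with its partner Arnt and binds DNA at hypoxia response elements, and its targets include most glycolytic enzymes and the genes for the hydroxylases that restrain it. In macrophages, inflammatory signals also raise HIF activity and glycolysis, and Arg1 and Nos2, which mark a macrophage state used below, are themselves known HIF targets.

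The cells came from the colons of CD45.1 recipient mice carrying bone marrow of CD45.2 donors that lacked the IL-10 receptor (IL-10R KO, below KO) or the IL-10 receptor and the ceramide synthase CerS2 together (IL-10R/CerS2 DKO, below DKO). Both groups lacked the receptor, and no library of mice with an intact one was analysed here. Tissue was digested with collagenase D, and cells positive for the myeloid surface proteins CD11b, CD11c and CD64 were sorted and captured with 10x 3′ v3.1 chemistry. There was 1 library per genotype, so genotype cannot be told apart from mouse, sort or library, and every interval below is a 95% interval that covers counting error only. The sources used here do not give the age of the mice or how many mice made up a library, and cells that a host keeps after marrow transfer carry both genes.

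The KO library held 2584 barcodes with 12549471 UMIs (molecules counted once through a tag) and the DKO library 742 barcodes with 3414944 UMIs, of which 2443 and 730 cells were kept, and 1 barcode sequence occurred in both. Of Cers2, the gene deleted in DKO, 443 UMIs were counted in monocyte/macrophage-like cells of KO and 0 in those of DKO, with 2 UMIs in all kept DKO cells. Monocyte/macrophage-like cells, named from their marker genes, were 1517 KO cells (62.1%) and 317 DKO cells (43.4%), with medians of 5499 and 5436 UMIs per cell. The sort had left other cells: 159 KO and 48 DKO neutrophil-like cells, 290 and 112 T cell/ILC-like cells, 229 and 166 B cell-like cells and 143 and 61 dendritic cell-like cells. A further 105 KO and 26 DKO cells, with medians of 738 and 836.5 UMIs, were left without a class name. The leading genes of the dendritic cell-like cluster included Cd209a but also Epcam, Hist1h2ae and Top2a, which are not dendritic cell markers.

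Summed over the monocyte/macrophage-like cells, the members took 77.2 of every 10000 UMIs in KO and 50.4 in DKO (log2 ratio of DKO over KO -0.61, interval -0.65 to -0.58). The glycolysis members took 51.4 UMIs per 10000 in KO and 36.4 in DKO (log2 ratio -0.50, interval -0.53 to -0.46). The hypoxia members took 25.76 in KO and 13.98 in DKO (log2 ratio -0.88, interval -0.94 to -0.82). Both groups of genes were thus lower in the DKO library, the hypoxia genes by more. Monocyte/macrophage markers together were at 141.6 UMIs per 10000 in KO and 177.2 in DKO and genes of dissociation stress at 52.0 and 61.6. The part of these shifts in the result was not tested.

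A large part of the members' RNA in KO sat in 1 state. The monocyte/macrophage-like cells were clustered again with the members and related pathway genes held out, and 1 cluster carried all 7 of the markers listed for an Arg1/Nos2 state (Arg1, Nos2, Slc7a2, Ptges, Cxcl3, Il1a and Inhba). The state took in 194 KO cells, which made 12.8% of the class (11.2 to 14.6), against 2 DKO cells, which made 0.631% (0.0765 to 2.26). A cluster that is almost all of 1 library may belong to that library and not to a cell type. In KO it held 36.3% of the members' UMIs with 14.7% of all UMIs of the class. Its cells had 190.5 member UMIs per 10000 against 57.6 in the other KO states, a 3.31-fold difference (3.26 to 3.36). With KO cells drawn down to the DKO number no cluster was named Arg1/Nos2, and the fold of the cluster with the highest marker level over the rest was 1.97. The glycolysis members were at 121.1 against 39.4 UMIs per 10000, 3.08-fold (3.02 to 3.14), and the hypoxia members at 69.4 against 18.2, 3.81-fold (3.71 to 3.91).

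Other features moved with this state. Its cells had Lyz2, a lysozyme gene of myeloid cells, at 820 CPM (UMIs per 1000000) against 3476 CPM in the other KO states, and all monocyte/macrophage markers together at 59.7 against 155.7 UMIs per 10000. Csf1r, the receptor gene that defines the lineage, was at 376 CPM in the state and 390.3 CPM outside it. Neutrophil markers were at 3.20 against 0.694 UMIs per 10000 and T cell/ILC markers at 4.09 against 1.10, while dissociation stress genes were lower, at 40.7 against 53.9. The median cell had 6260.5 UMIs in the state and 5384 outside it. Their part in the members' levels was not tested.

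**Figure D1:**
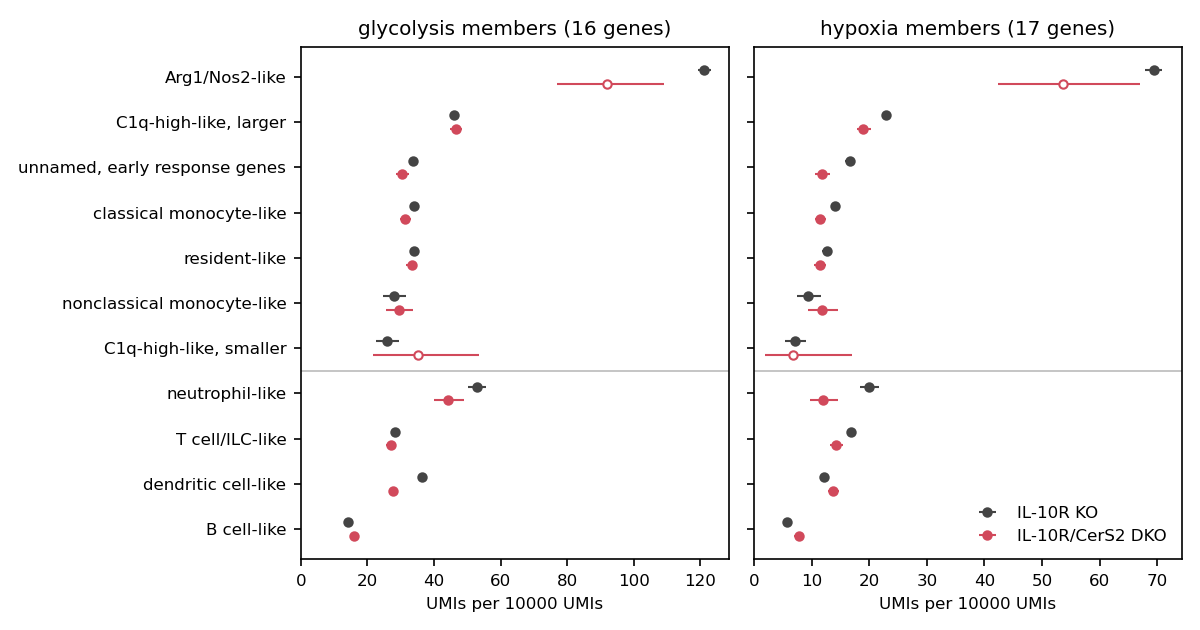
Summed UMIs of the glycolysis members (left) and the hypoxia members (right) per 10000 UMIs in each monocyte/macrophage state (above the line) and each other named cell class (below it), with 95% counting intervals. Dark points are IL-10R KO, red points IL-10R/CerS2 DKO, and open points rest on fewer than 10 cells. The Arg1/Nos2-like state in KO stands at 121.1 and 69.4, above every other state and class in either library that has at least 10 cells.

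Among the other states, the larger of the 2 C1q-high-like clusters, named from 4 markers, came next in KO. It had 46.0 glycolysis UMIs and 23.0 hypoxia UMIs per 10000. An unnamed cluster led by early response genes such as Egr1, Atf3 and Fos came after it by hypoxia level, with 33.7 and 16.6. Its stress genes were at 136.6 UMIs per 10000 in KO and 115.5 in DKO. This unnamed cluster also carried 6 C1q-high markers and stayed unnamed because of its leading genes. The C1q-high markers together were at 152.2 UMIs per 10000 there in KO and 240.9 in DKO. In the larger C1q-high-like cluster they were at 108.8 and 106.2, so the names do not rank these 2 clusters by C1q-high level. Classical monocyte-like cells had 34.0 and 13.99, resident-like cells 34.1 and 12.6, and nonclassical monocyte-like cells 27.8 and 9.39. The smaller C1q-high-like cluster, with 36 KO and 3 DKO cells, had the lowest KO levels, 25.8 and 7.02. Its C1q-high markers were the highest in KO, at 460.8 UMIs per 10000, so the 2 clusters of that name differed in member level. The glycolysis levels of the classical, resident-like and unnamed clusters differed by less than their counting intervals, so their order is not set.

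Taken cell by cell, each of the 2 gene groups was high in the same state, and cells high in both groups were not counted. In the Arg1/Nos2-like state of KO the median cell had 67.5 hypoxia UMIs per 10000 (quartiles 50.3 and 88.7) and 118.6 glycolysis UMIs (97.7 and 148.6). The median cell of the other KO states had 15.4 hypoxia UMIs per 10000 and 33.9 glycolysis UMIs. Of those other KO cells, 9 of 1323 reached the state's median of hypoxia UMIs, a share of 0.680% (0.312 to 1.29), as did 0 of all 317 DKO cells, a count that allows a share of up to 0.946% (3 cells of 317). After each cell was thinned to 2000 UMIs, a cell of the state had a median of 16 of the 33 members detected, against 7 in the other KO cells and 6 in the DKO cells outside the state. The 2 DKO cells in the state had member sums of 195.3 and 99.5 UMIs per 10000, with 0 Arg1 UMIs in either cell and 0 and 2 Nos2 UMIs.

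**Figure D2:**
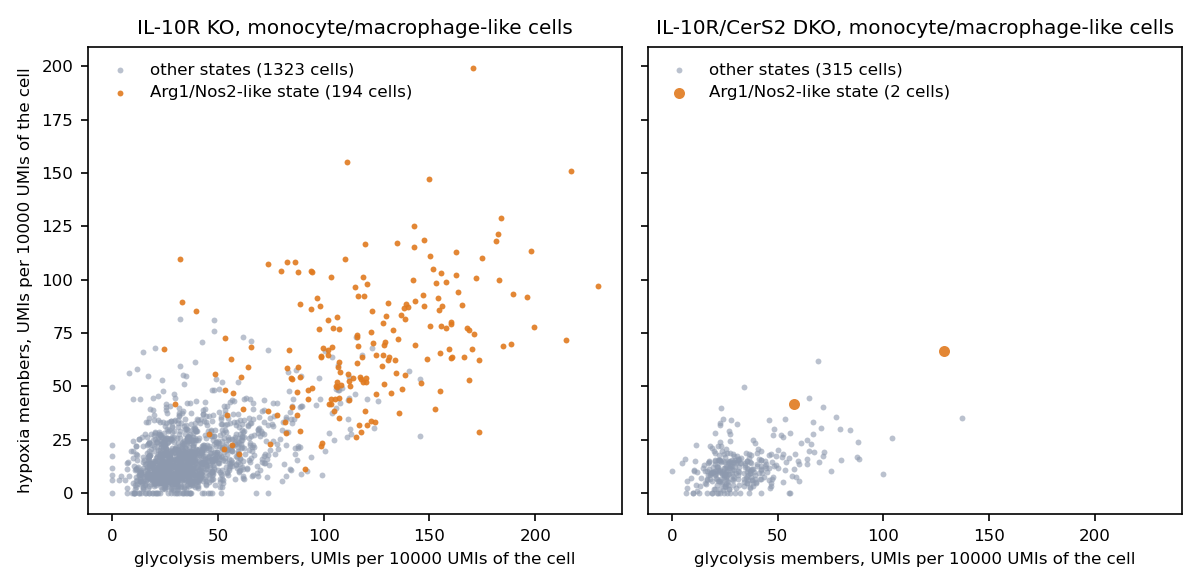
Glycolysis members against hypoxia members in UMIs per 10000 UMIs of each monocyte/macrophage-like cell, for KO (left) and DKO (right), with cells of the Arg1/Nos2-like state in orange. In KO the 194 orange cells lie around 118.6 and 67.5 (medians) and the grey cells around 33.9 and 15.4. In DKO 2 cells are orange.

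Gene by gene, 29 of the 32 members with at least 10 UMIs were at least 2-fold higher in the Arg1/Nos2-like state than in the other KO states, where 8.69% of all genes were. In the drawn-down KO cells 15 were, in the cluster with the highest marker level. The state's clustering and the choice of members used these cells, so nothing is read from this count. The exceptions were Hif1a, Pfkp and Pfkfb3, which were less than 2-fold higher. The members' median log2 ratio was 1.77, that of the glycolysis members 1.66 and that of the hypoxia members 2.16, beside -0.18 over all genes. For 30 members the Arg1/Nos2-like state had the highest level of all KO states, and for 24 of them its interval lay apart from that of the next state. The share of all genes by these rules was not computed, and nothing is read from these counts either.

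The hypoxia members held the largest ratios. P4ha2 (ENSMUSG00000018906, chromosome 11, 54100095 to 54131665, GRCm38, plus strand), a prolyl hydroxylase subunit for collagen, had 45 of its 46 KO UMIs in the state, with a log2 ratio of 7.46 and a wide counting interval (5.47 to 13.4). Egln3 (ENSMUSG00000035105, chromosome 12, 54178981 to 54203860, minus strand), the oxygen-sensing hydroxylase best known for its induction by HIF, had 201 of 227 UMIs there, with 157 CPM against 3.51 CPM outside, or 44.1-fold. Egln3 also stood among the 10 leading genes of the state although it was held out of the clustering. Its level in KO T cell/ILC-like cells was 15.3 CPM and in KO neutrophil-like cells 24.98 CPM, so its RNA was not confined to the state.

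Ero1l (ENSMUSG00000021831, chromosome 14, 45283087 to 45318771, minus strand), an oxidase of protein folding in the endoplasmic reticulum, was at 710.04 CPM in the state and 42.7 CPM outside it, 16.6-fold. Bnip3 (ENSMUSG00000078566, chromosome 7, 138890836 to 138909519, minus strand), a receptor for the removal of mitochondria by autophagy, was at 432 against 31.8 CPM, 13.6-fold. Ero1l was found in 80.9% of the state's cells, Bnip3 in 79.4% and Egln3 in 45.4%. At 2000 UMIs per cell the shares were 60.6%, 49.7% and 23.8% in the state, and 7.56%, 5.93% and 0.813% in the other KO states. B cell-like cells of KO, taken here as a measure of stray RNA, had 1.72%, 2.87% and 0.575% at that depth.

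Smaller ratios followed for 6 further hypoxia genes. Ndrg1, a stress-responsive gene, was at 424 CPM in the state and 57.0 CPM outside it, 7.43-fold. Hilpda (ENSMUSG00000043421, chromosome 6, 29272488 to 29275446, plus strand), whose product blocks the breakdown of lipid droplets, was at 1655 against 311 CPM, 5.32-fold. Ddit4, an inhibitor of mTORC1, was 4.81-fold higher and Pdk1, a kinase that keeps pyruvate out of mitochondria, 4.599-fold. Ankrd37, an ankyrin repeat protein whose gene overlaps Lrp2bp on the other strand, was 4.32-fold higher and Egln1, the main oxygen-sensing hydroxylase, 3.92-fold. The pair Bnip3 and Bnip3l, which encode related mitophagy receptors, differed, with Bnip3l at 267 against 112 CPM, or 2.39-fold.

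For the 10 hypoxia genes with the largest ratios, the promoter sequence was searched for the core of the hypoxia response element, since the genes were high in the same state. The sequences are RefSeq promoters of GRCm38.p6, from 250 bases before to 50 bases after each start site, and 9 of the 10 genes had one. For 8 genes the letters ACGTG occurred before the start site on one strand or the other, and a stretch around 1 site of each gene follows 5′ to 3′ on the gene's strand, with the motif or its reverse complement in capitals. The other sites are not shown, such as one at base -241 from the start site in Ankrd37, whose stretch holds the site at -6.
P4ha2: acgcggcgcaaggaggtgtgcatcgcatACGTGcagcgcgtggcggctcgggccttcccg
Egln3: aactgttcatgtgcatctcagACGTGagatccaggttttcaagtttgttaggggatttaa
Ero1l: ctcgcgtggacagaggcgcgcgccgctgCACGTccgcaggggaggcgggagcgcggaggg
Bnip3: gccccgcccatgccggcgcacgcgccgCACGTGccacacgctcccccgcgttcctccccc
Hilpda: ggatggccagcggACGTGccccagggcgag
Ddit4: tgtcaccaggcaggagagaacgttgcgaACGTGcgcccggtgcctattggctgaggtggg
Ankrd37: ggctgcacatgtcagtgtttgggtACGTGa
Egln1: ggggccgtggtgtACGTGcagcgcgcgcgg

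These stretches lie at chr11:54100818-54100877 for P4ha2, chr12:54204065-54204124 for Egln3, chr14:45318604-45318663 for Ero1l, chr7:138909582-138909641 for Bnip3 and chr10:59951926-59951985 for Ddit4, outside annotated exons. Those of Hilpda (chr6:29272570-29272599), Ankrd37 (chr8:45999851-45999880) and Egln1 (chr8:124949306-124949335) touch an exon of the gene annotation and were kept to 30 bases. P4ha2 and Hilpda are on the plus strand and the others on the minus strand. In Bnip3 the capitals CACGTG hold the motif on both strands. Pdk1 had promoters without the motif in this window before the start site.

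Over all members with a promoter in the table, 24 of 31 genes held ACGTG in at least 1 promoter (77.4%), against 21.8% of all 27025 genes. Of their 44 promoters 27 did (61.4%), against 19.6% of the 32851 promoters in the table. GCGTG, the other form of the core, was in 56.8% of member promoters and 32.4% of all. CACGTG, which contains ACGTG on both strands, was in 9.09% and 7.15%. Member promoters held a median of 23.5 CG pairs and all promoters 7, and the part of this base composition in the shares was not tested. Many members are well-known HIF targets, so the shares are a description of the sequences and not evidence of binding here.

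The glycolytic enzymes were higher in the state within a narrow range, from 1.87-fold for Pfkfb3 to 3.898-fold for Pgk1. Slc2a1, the glucose transporter GLUT1, was at 278 CPM in the state and 74.4 CPM outside it, 3.74-fold. Of the hexokinases, which trap glucose in the cell, Hk1 was 3.46-fold and Hk2 2.30-fold higher. Tpi1 and Eno1, enzymes of the lower pathway, were 3.796-fold and 3.794-fold higher. Gapdh (ENSMUSG00000057666, chromosome 6, 125161715 to 125166467, minus strand), whose 13516 UMIs over both libraries were the most of any member, was at 3381 against 1020.15 CPM, 3.31-fold. Aldoa, the aldolase, was 2.75-fold higher, Pkm, the pyruvate kinase, 2.94-fold, and Ldha, which makes lactate, 3.18-fold. The remaining enzymes Gpi1, Pfkl and Pgam1 were 3.08-fold, 3.34-fold and 3.13-fold higher.

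The pattern was weaker for Pfkp, Pfkfb3 and Slc16a3. Pfkp, a form of phosphofructokinase, was 1.88-fold higher in the state, and Pfkfb3, which makes the activator of phosphofructokinase, had its highest level in the unnamed early response cluster, 67.5 CPM against 53.9 CPM in the Arg1/Nos2-like state, with counting intervals that overlap. Slc16a3, the lactate exporter MCT4, was at 343 CPM in the state but at 442 CPM in nonclassical monocyte-like cells and 1299 CPM in neutrophil-like cells of KO. Its intervals in the state and in nonclassical monocyte-like cells overlap, so for neither gene is the order of these states set. Across cell classes, 19 members were highest in monocyte/macrophage-like cells, 7 in neutrophil-like cells (among them Slc2a1, Pkm, Hilpda and Slc16a3), 5 in T cell/ILC-like cells (among them Ldha, Bnip3l and Higd1a) and 1, Pfkp, in dendritic cell-like cells. The interval lay apart from that of the next class for 9, 4, 3 and 0 of these, among them each of the named genes but Slc2a1 and Pfkp. The shares of all genes by these rules were not computed, and nothing is read from these counts. KO neutrophil-like cells had 53.0 glycolysis and 20.02 hypoxia UMIs per 10000. KO monocyte/macrophage-like cells had 51.4 and 25.76 with the Arg1/Nos2-like state and 39.4 and 18.2 without it.

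**Figure D3:**
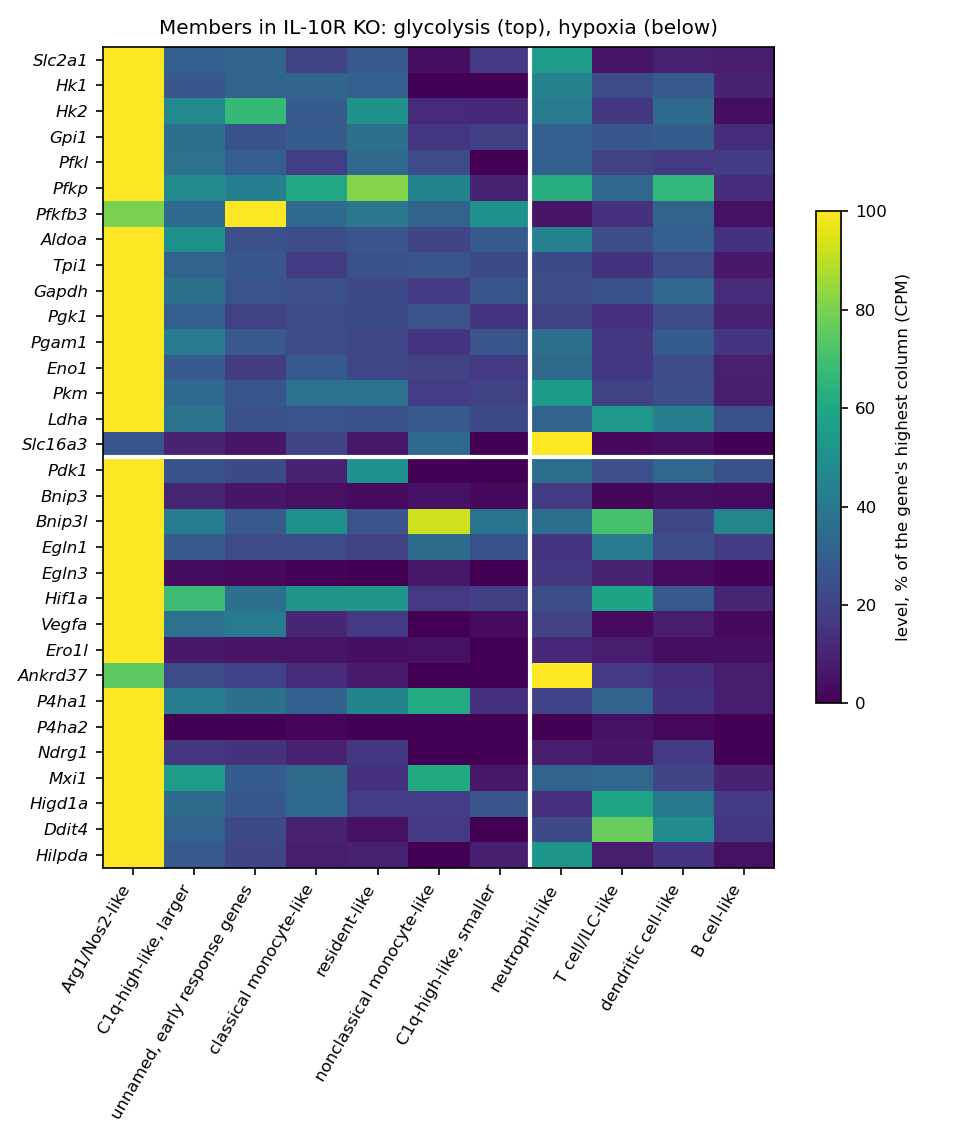
Level of each member in KO, as a percentage of the gene's own highest column (CPM), in the 7 monocyte/macrophage states (left of the white line) and 4 other cell classes. Glycolysis members are above the white line and hypoxia members below it, and Adm is left out because it had 1 UMI in these KO cells. Most rows peak in the Arg1/Nos2-like column, and Pfkfb3, Slc16a3 and Ankrd37 peak elsewhere.

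Hif1a itself (ENSMUSG00000021109, chromosome 12, 73901375 to 73947530, plus strand) had the smallest ratio of the hypoxia genes in the state, 973 against 555 CPM or 1.75-fold. The remaining hypoxia genes were Vegfa, the growth factor for blood vessels, at 826 against 225 CPM (3.67-fold), P4ha1 (2.60-fold), the Myc antagonist Mxi1 (2.40-fold) and Higd1a, a mitochondrial protein (3.10-fold). With Hif1a left out, the hypoxia sum was 59.7 UMIs per 10000 in the state and 12.7 outside it, 4.71-fold.

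Between the libraries, 6 of the 32 members were at least 2-fold lower in DKO than in KO over all monocyte/macrophage-like cells, where 4.95% of all genes were, and 0 were at least 2-fold higher, where 6.31% were. These contrasts were known when the genes were chosen and nothing is read from the counts. The 6 genes were Egln3, P4ha2, Bnip3, Ero1l, Hilpda and Slc2a1. The members' median log2 ratio was -0.57, beside 0.10 over all genes. The counting interval lay below 0 for 28 members and included 0 for Pfkfb3, Slc16a3, Pdk1 and Ankrd37. The share of all genes with an interval below 0 was not computed, so nothing is read from this count either.

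Egln3 had 227 UMIs in KO and 2 in DKO (log2 ratio -4.21, interval -7.59 to -2.66), and P4ha2 had 46 and 1. Bnip3 was at 90.7 CPM in KO and 16.4 CPM in DKO (log2 ratio -2.45, interval -3.06 to -1.94). Ero1l was at 141 and 31.6 CPM (log2 ratio -2.14, interval -2.57 to -1.77). These 4 genes with the lowest ratios were also the 4 with the largest share of their KO UMIs in the Arg1/Nos2-like state, from 70.1% for Bnip3 to 97.8% for P4ha2. That state had 194 KO and 2 DKO cells, so the low ratios and the large shares are not separate results. Hilpda was at 509 and 209 CPM (log2 ratio -1.28, interval -1.44 to -1.13), and the state held 47.9% of its UMIs from KO. Slc2a1 was at 104 and 47.4 CPM (log2 ratio -1.13, interval -1.48 to -0.81), and Ddit4 at 21.0 and 10.7 CPM (log2 ratio -0.94, interval -1.74 to -0.29).

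At the other end, Ankrd37 was at 42.5 CPM in KO and 47.4 CPM in DKO (log2 ratio 0.16, interval -0.20 to 0.50). Slc16a3 had a log2 ratio of -0.11 (-0.29 to 0.06), Pfkfb3 of -0.20 (-0.67 to 0.23), Gpi1 of -0.29, Pkm of -0.29 and Pfkp of -0.33. The other glycolytic enzymes lay between -0.39 (Hk2) and -0.74 (Tpi1). Gapdh, the glycolysis gene with most UMIs, was at 1368 CPM in KO and 916 CPM in DKO (log2 ratio -0.58, interval -0.65 to -0.50). The other hypoxia genes with intervals below 0 were Hif1a (-0.84), Vegfa (-0.78), Egln1 (-0.62), Higd1a (-0.59), Mxi1 (-0.58), P4ha1 (-0.52), Bnip3l (-0.49) and Ndrg1 (-0.42), each a log2 ratio.

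Without the Arg1/Nos2-like state the difference was smaller. The members took 57.6 UMIs per 10000 in KO and 49.6 in DKO (log2 ratio -0.21, interval -0.25 to -0.18), with the glycolysis members at 39.4 and 36.0 (-0.13, -0.17 to -0.09) and the hypoxia members at 18.2 and 13.7 (-0.42, -0.48 to -0.35). Of 31 members with enough UMIs, 1 was then at least 2-fold lower, Egln3, on 26 KO and 2 DKO UMIs with an interval that included 0, where 3.72% of all genes were, and 0 were at least 2-fold higher, where 5.26% were. Over the 32 members, P4ha2 with 1 UMI in each library among them, 15 intervals still lay below 0, 2 lay above it and 15 included it. The shares of all genes with such intervals were not computed, and nothing is read from these counts. The median over members was -0.18, beside 0.09 over all genes.

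**Figure D4:**
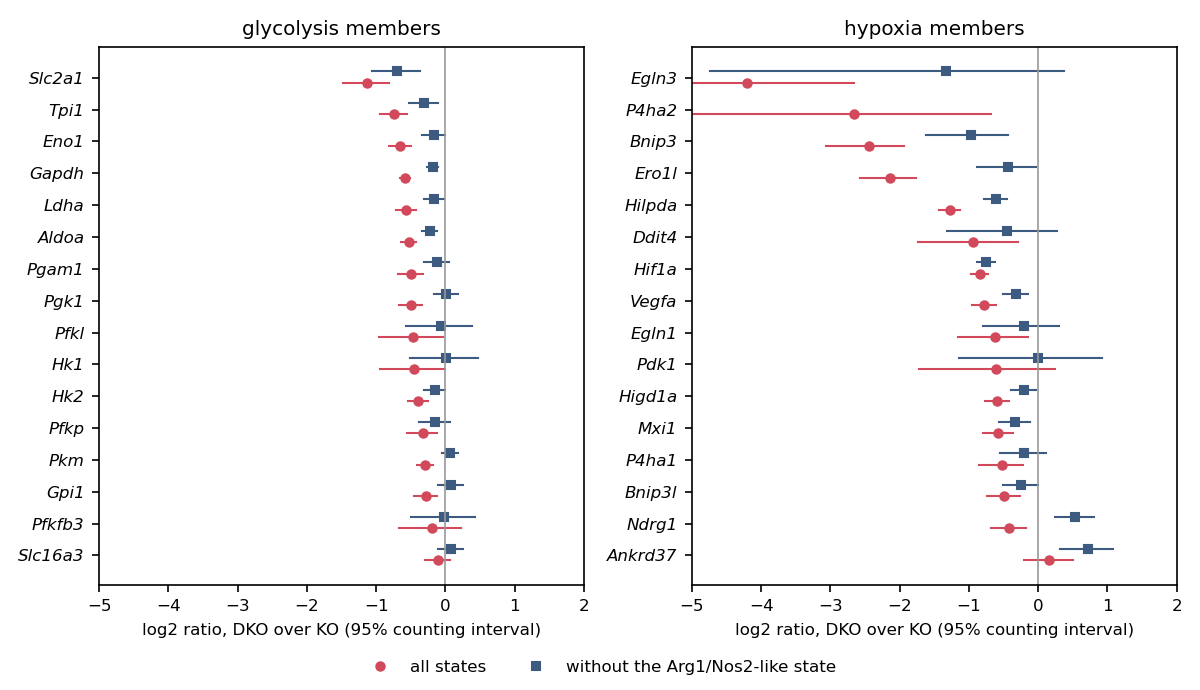
Log2 ratio of DKO over KO for each member with enough UMIs in monocyte/macrophage-like cells, over all states (red circles) and without the Arg1/Nos2-like state (blue squares), with 95% counting intervals cut off at the axis ends. Glycolysis members are left and hypoxia members right. Egln3, Bnip3 and Ero1l move from -4.21, -2.45 and -2.14 to -1.33, -0.98 and -0.44, Hif1a from -0.84 to -0.75, and Ndrg1 and Ankrd37 lie above 0 without the state.

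The Hif1a difference was nearly as large without that state as with it. The gene was at 617 CPM in KO and 343 CPM in DKO over all states (log2 ratio -0.84, interval -0.97 to -0.72), and at 555 and 329 CPM without the Arg1/Nos2-like state (log2 ratio -0.75, interval -0.88 to -0.63). Within states it was at 668 CPM in KO and 519 CPM in DKO in the larger C1q-high-like cluster, 507 and 274 in classical monocyte-like cells, 508 and 330.3 in resident-like cells and 355 and 130.4 in the unnamed early response cluster. All 4 intervals lay below 0. In nonclassical monocyte-like cells its 15 and 9 UMIs gave 162 and 129 CPM, and the interval included 0. The gene was also lower in DKO outside the macrophages, at 564 and 245 CPM in T cell/ILC-like cells and 272 and 139 CPM in dendritic cell-like cells, with intervals below 0. Its intervals in neutrophil-like cells (232 and 213 CPM) and B cell-like cells (99.2 and 134 CPM) included 0. The make-up of the T cell/ILC-like and dendritic cell-like classes differed between the libraries. A cluster led by Tnfrsf4, Icos and Ctla4 was 149 of 290 T cell/ILC-like cells in KO and 44 of 112 in DKO. Monocyte/macrophage markers in dendritic cell-like cells were at 22.3 UMIs per 10000 in KO and 55.5 in DKO. The part of these shifts in the Hif1a values was not tested.

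Part of the hypoxia difference outside the Arg1/Nos2-like state rested on Hif1a and Hilpda. The log2 ratio of the hypoxia sum without the state moved from -0.42 to -0.29 (-0.36 to -0.22) with Hif1a left out and to -0.20 (-0.28 to -0.12) with both genes left out. Within the larger C1q-high-like cluster the hypoxia sum had a log2 ratio of -0.27 (-0.37 to -0.18), in classical monocyte-like cells -0.29 (-0.42 to -0.15) and in the unnamed early response cluster -0.49 (-0.66 to -0.31). The intervals of resident-like and nonclassical monocyte-like cells included 0. The glycolysis sum differed less, with intervals that included 0 in 3 of these 5 states and log2 ratios of -0.11 in classical monocyte-like cells and -0.14 in the unnamed cluster.

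Slc2a1, the glucose transporter, was lower in DKO in each of the 4 states with enough UMIs, with intervals below 0 in the larger C1q-high-like cluster (84.9 against 53.9 CPM), classical monocyte-like cells (54.2 against 21.4) and resident-like cells (77.7 against 43.6). Hk2 was at 292 CPM in KO and 170 CPM in DKO in the larger C1q-high-like cluster, an interval below 0, but at 315 and 388 CPM in resident-like cells, where it included 0. Hilpda in that C1q-high-like cluster was at 463 and 297 CPM and Bnip3 at 45.5 and 12.0 CPM, both with intervals below 0. Pgk1 was higher in DKO there, at 225.5 CPM in KO and 295.3 CPM in DKO (log2 ratio 0.39, interval 0.13 to 0.64). Gpi1 was higher in DKO in the unnamed early response cluster, at 138 and 210 CPM (log2 ratio 0.61, interval 0.13 to 1.06).

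Ndrg1 and Ankrd37 also went the other way. Without the Arg1/Nos2-like state Ndrg1 was at 57.0 CPM in KO and 82.0 CPM in DKO (log2 ratio 0.53, interval 0.24 to 0.80), although with the state it was lower in DKO. Ankrd37 was at 28.6 and 46.7 CPM (log2 ratio 0.71, interval 0.32 to 1.08). Within states the interval of Ndrg1 lay above 0 in the larger C1q-high-like cluster and in resident-like cells, and that of Ankrd37 in classical monocyte-like cells, at 20.3 CPM in KO and 57.7 CPM in DKO.

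In the other cell classes the members were compared as sums. In neutrophil-like cells of KO and DKO the hypoxia members were at 20.02 and 11.97 UMIs per 10000 (log2 ratio -0.74, interval -1.06 to -0.43). Hilpda, at 867 and 284 CPM, made up 243 of the 561 hypoxia UMIs in KO and 24 of the 101 in DKO. The difference thus rested in large part on this gene, and the sum without it was not computed. Beside this, dissociation stress genes in neutrophil-like cells were at 131.6 UMIs per 10000 in KO and 89.6 in DKO and neutrophil markers at 776.6 and 1186, and their part in the difference was not tested. Slc2a1 was at 153.5 CPM in KO and 154 CPM in DKO neutrophil-like cells, and Slc16a3 at 1299 and 1398 CPM. In T cell/ILC-like cells the hypoxia members were at 16.8 and 14.2 (log2 ratio -0.24), and with Hif1a left out the interval included 0. In dendritic cell-like cells the glycolysis members had a log2 ratio of -0.40 and the hypoxia members of 0.17 (0.05 to 0.29), with Hilpda at 256 CPM in KO and 588 CPM in DKO. In that class 74 of the 369 DKO Hilpda UMIs came from 1 cell, and Lyz2 was at 814 CPM (KO) and 4716 CPM (DKO). Its make-up differed between the libraries in other ways. Dendritic cell markers were at 11.1 UMIs per 10000 in KO and 20.9 in DKO, epithelial markers at 7.90 and 2.66 and cell cycle genes at 11.1 and 5.78. The part of these shifts in the sums of that class was not tested. With Hilpda left out the log2 ratio of the hypoxia members was -0.29. With Hif1a left out instead it was 0.39 (0.26 to 0.51). In B cell-like cells the hypoxia members were at 5.67 and 7.73 UMIs per 10000 (log2 ratio 0.45, interval 0.23 to 0.66), and Adm had 1 UMI in KO and 3 in DKO. B cell markers in that class were at 83.8 UMIs per 10000 in KO and 42.5 in DKO, and the part of this shift was not tested.

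The genes of neighbouring pathways did not all move with the members in the Arg1/Nos2-like state. Over all genes, 8.69% were at least 2-fold higher in the state and 14.9% at least 2-fold lower. Of 26 other HIF targets with at least 10 UMIs, 10 were at least 2-fold higher in the state and 0 at least 2-fold lower, with a median log2 ratio of 0.88. F3, the coagulation factor that starts clotting, was at 81.2 against 2.02 CPM, Fam162a at 455 against 48.9, the cystine transporter Slc7a11 at 1025 against 179 and the cytokine Mif at 2050 against 507. Selenbp1, Ccng2, Tfrc and Pgf had log2 ratios of 2.50, 1.39, 1.02 and 1.01, and Ak4 reached the fold on 12 UMIs. Of 18 other genes of glycolysis and glycogen, 7 were at least 2-fold higher, with a median of 0.24. They included the glycogen genes Gys1 (49.2 against 3.10 CPM), Pygl (106 against 29.9), Gbe1 (18.0 against 5.53) and Pgm2 (57.0 against 6.61), the aldolase Aldoc (32.8 against 7.42) and the lactate transporter Slc16a1 (35.9 against 13.5), and Slc2a3 reached the fold on 12 UMIs. The 3 lower ones were Ldhb, whose enzyme favours the use of lactate, with a log2 ratio of -2.18, Slc2a6 (-1.21) and Eno3, whose interval included 0.

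The citric acid cycle genes were not higher in the state. All 23 of them with at least 10 UMIs had a log2 ratio below 0 in the state (Dlat at -0.0017), with a median of -0.43 beside -0.18 over all genes, and 19 of the 23 lay below the median of all genes. At least 2-fold lower were 4, where 14.9% of all genes were. These were Idh2, the isocitrate dehydrogenase of mitochondria (4.69 against 21.8 CPM), Suclg1 (20.3 against 45.6), Fh1, the fumarase (7.03 against 18.7), and Suclg2 (2.34 against 9.17). Of 7 pentose phosphate genes, 6 were below 0, Rpia (log2 ratio -1.03) by 2-fold, and Pgd had a log2 ratio of 0.79. The oxygen-sensing genes beside the members, among them Vhl, Arnt and Egln2, had a median log2 ratio of 0.01 over 12 genes, and 1, Epas1 with 10 UMIs, reached the fold.

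Between the libraries, 4.95% of all genes were at least 2-fold lower in DKO and 6.31% at least 2-fold higher. Of the 26 other HIF targets, 4 were at least 2-fold lower in DKO. These were F3 (13.7 CPM in KO, 2.82 in DKO), Fam162a (109 and 36.7), Pgf (35.0 and 16.9) and Ak4, with 12 and 0 UMIs. The median of that list was -0.05. Without the Arg1/Nos2-like state 0 of 25 were at least 2-fold lower or higher, where 3.72% and 5.26% of all genes were. Gys1 was the 1 other glycolysis or glycogen gene at least 2-fold lower (9.89 and 4.52 CPM) and Eno3 the 1 at least 2-fold higher (6.09 and 13.5 CPM). No gene of the citric acid cycle, of the pentose phosphate pathway or of the oxygen-sensing list was 2-fold apart, with medians of 0.15, 0.03 and -0.04.

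**Figure D5:**
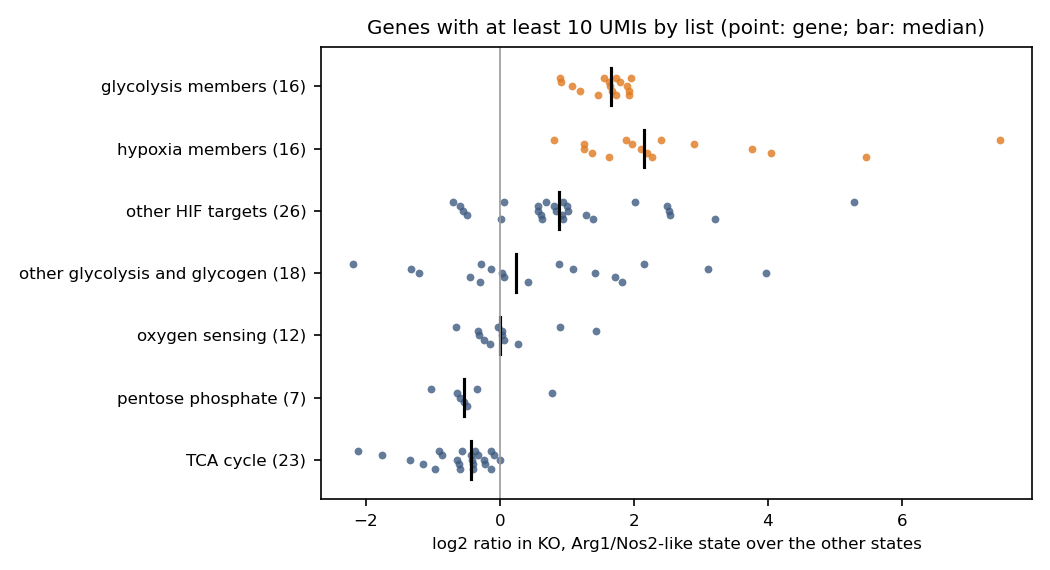
Log2 ratio of the Arg1/Nos2-like state over the other monocyte/macrophage states in KO for each gene with at least 10 UMIs, by list, with the median of each list as a black bar. The members (orange) lie at medians of 1.66 and 2.16, the other HIF targets at 0.88, and the pentose phosphate and citric acid (TCA) cycle genes at -0.54 and -0.43.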

How the data were processed

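The authors deposited raw counts of UMIs per gene and cell barcode, made with Cell Ranger 6.0.1 on mm10 per the submitters' processing notes, which also name Seurat 4.3.0. The genome annotation of the counts is not given in the sources used here. Counts are of 3′ ends and not scaled to gene length, so levels of different genes are not compared. Gapdh and other glycolytic genes have processed pseudogenes, and Ankrd37 overlaps Lrp2bp on the other strand; how such reads were assigned is not given in the sources used here. Of 2 rows for Aldoa, 1 held 0 UMIs. Cell classes were rebuilt, since the study's own annotation was not used here.

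Cells with 300 to 5000 genes and at most 10% mitochondrial UMIs were clustered together (R 4.3.3, Seurat 5.3.0: 2000 variable genes, 30 components, 20 neighbours, resolution 0.3), with all genes of the pathway lists and Cers2 held out of the variable genes. Monocyte/macrophage-like cells were then clustered again in the same way. A cluster was named from at least 3 markers, each with at least 20 UMIs, at 25% or more of its highest cluster and in 20% or more of the cells. A cluster whose leading 10 genes or depth went against the name stayed unnamed. Scrublet (scanpy 1.11.5) called 6 of 2584 KO and 1 of 742 DKO barcodes as doublets, too few to count as working, and none was removed. An alternative left out the 105 KO and 24 DKO barcodes with the highest scores.

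UMIs were summed per library and class or state (Python 3.11.15, numpy 2.4.6, scipy 1.17.1). Levels carry exact Poisson intervals, ratios exact conditional (Clopper-Pearson) intervals and shares exact binomial intervals, and a count of 0 cells is given with the limit of 3 cells. Log2 ratios add 0.5 to each sum, and genes needed 10 UMIs. With 1 library per genotype no test was run. The ratio step was checked on simulated data. TMM factors came from edgeR 4.0.16. Members, lists, markers and alternatives were chosen with earlier results of these data known. Values were given in full for members with at least 50 UMIs among the 6 highest or 6 lowest by ratio between libraries, the 10 with the largest ratio in the Arg1/Nos2-like state and the 6 with most UMIs, and for genes of other lists with at least 50 UMIs that were 2-fold apart. Others were named after their values were seen. A gene counted among the other HIF targets is not reported here by name.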

Additional observations from a re-analysis of the deposited data

Results flagged for a closer look

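In monocyte/macrophage-like, neutrophil-like and T cell/ILC-like cells the sums of the hypoxia members were lower in DKO, and 2 other named classes stood on the other side of 0. The sum was also lower in DKO in the cells left without a class name (log2 ratio -1.05, interval -1.74 to -0.47). These were 105 KO and 26 DKO cells of low depth. The difference between classes was not tested, since there was 1 library per genotype. In dendritic cell-like cells the hypoxia members had a log2 ratio of DKO over KO of 0.17. This value was -0.29 without Hilpda and 0.39 without Hif1a. Dendritic cell markers in that class were at 11.1 UMIs per 10000 in KO and 20.9 in DKO and epithelial markers at 7.90 and 2.66. The part of these shifts was not tested. Beside Hilpda, the intervals of the hypoxia members Bnip3l, Vegfa and Ndrg1 lay above 0 in that class. Those of Hif1a, Bnip3, Egln1, Ero1l, Higd1a and Ddit4 lay below 0. In B cell-like cells all members together had a log2 ratio of 0.25, the glycolysis members of 0.16 and the hypoxia members of 0.45, while B cell markers were at 83.8 UMIs per 10000 in KO and 42.5 in DKO. Ankrd37 rested on 9 UMIs in KO and 34 in DKO B cell-like cells, 13.3 against 73.6 CPM, and with it left out the hypoxia value was 0.34 (0.12 to 0.55). Ldha and Vegfa were the other 2 members whose interval lay above 0 in that class.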

How the results depend on the processing

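No paired analysis was possible because there was 1 library per genotype. The log2 ratios of DKO over KO for all members, the glycolysis members and the hypoxia members (-0.61, -0.50 and -0.88) kept their sign in every alternative. They were -0.74, -0.62 and -1.004 with TMM scaling (which moves every gene by the same -0.12), -0.51, -0.43 and -0.69 over every cell with a Lyz2 UMI, -0.21, -0.13 and -0.42 without the Arg1/Nos2-like state, and -0.11, -0.0434 and -0.28 with the states of DKO weighted as in KO. The weighting used the 5 states with at least 20 cells in each library. It thus left out the Arg1/Nos2-like state and the smaller C1q-high-like cluster as well. The members' median of -0.57 was -0.18 without the state and -0.0816 with weighted states, and the count of 6 members at least 2-fold lower was 1 without the state. The count of members at least 2-fold higher was 0 in all settings run. The log2 ratio of the state over the others, 1.73, was 1.67 with a stricter cell filter, 1.68 without high doublet scores, 1.62 with a finer second clustering, 1.76 with the lists among the variable genes and 1.84 without the 6 members with most UMIs. With KO cells drawn down to the DKO number it was 0.98, with 15 in place of 29 members at least 2-fold higher. In that setting no cluster was named Arg1/Nos2, and the one with the highest marker level held 247 KO and 108 DKO cells. In alternatives chosen after seeing the data, the hypoxia value in dendritic cell-like cells was -0.29 without Hilpda, and the hypoxia value outside the state was -0.29 without Hif1a and -0.20 without Hif1a and Hilpda. The cause of these shifts was not tested. Depth limits P4ha2 and Egln3, with 1 and 2 UMIs in DKO.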
